A study of Mus musculus with 4 samples.

Results

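The 9 homeobox genes Irx2, Irx3, Irx4, Irx5, Msx1, Msx2, Dlx3, Meis1 and Meis2 were followed in sorted mouse back skin cells, as 9 of 12393 genes and 11 of 22690 probe sets measured. They were chosen on their symbols with the difference between the sorted groups on these arrays already known, and each gene is represented by its probe set with the highest mean log2 signal over the 4 arrays. Their differences are therefore a description and carry no test. All mice carried the K14-GFP-actin transgene, in which the keratin 14 promoter, active in basal keratinocytes, drives a fusion of GFP and actin, and all were at postnatal day 49, a time of hair follicle rest (telogen). The total epidermis group holds 2 arrays of all living GFP-positive cells, and the bulge basal group holds 2 arrays of GFP-positive cells gated as α6high CD34high, the basal cells of the stem cell niche in the hair follicle. A cell type label reads basal bulge stem cells on all 4 samples, the total sorts included, so the groups rest on the titles, which the labelled sorted populations match. The series asked which genes set telogen bulge basal cells apart from the epidermis as a whole. Bulge cells were not removed from the total sort, so the total arrays include them. No label states whether replicates came from separate or pooled animals, so intervals and p-values reflect the spread among these 4 samples alone, and that spread may be technical.

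Homeobox genes encode transcription factors that bind DNA through a homeodomain. The Iroquois (Irx) and Meis proteins belong to the TALE class, whose homeodomain carries an extra loop, and Meis proteins act as partners of Hox and Pbx proteins. Msx1 and Msx2 are transcriptional repressors that respond to BMP signals in many ectodermal organs, and Msx2 and Dlx3 are known for their roles in hair shaft formation. In mouse, Irx genes lie in clusters: RefSeq places Irx1, Irx2 and Irx4 next to each other on chromosome 13, and Irx3, Irx5 and Irx6 next to each other on chromosome 8. Dlx3 lies beside Dlx4 on chromosome 11, while Msx1 (chromosome 5), Msx2 (chromosome 13), Meis1 (chromosome 11) and Meis2 (chromosome 2) have no other gene of the 9 as a neighbour.

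Promoter sequences are shown for Irx3, Irx4 and Meis2, the genes whose groups lay farthest apart. Each holds the 250 bases before the gene's start from RefSeq on GRCm38.p6, written on the gene's strand, with CpG dinucleotides in capitals. Irx3 is at chr8:91801655-91801904 on the minus strand, Irx4 at chr13:73260247-73260496 on the plus strand and Meis2 at chr2:116064620-116064869 on the minus strand.
Irx3: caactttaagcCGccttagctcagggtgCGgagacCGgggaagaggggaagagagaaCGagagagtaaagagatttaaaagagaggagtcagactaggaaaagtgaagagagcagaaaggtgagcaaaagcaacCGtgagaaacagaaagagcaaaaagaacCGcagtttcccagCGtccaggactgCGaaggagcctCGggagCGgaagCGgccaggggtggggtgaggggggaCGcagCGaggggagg
Irx4: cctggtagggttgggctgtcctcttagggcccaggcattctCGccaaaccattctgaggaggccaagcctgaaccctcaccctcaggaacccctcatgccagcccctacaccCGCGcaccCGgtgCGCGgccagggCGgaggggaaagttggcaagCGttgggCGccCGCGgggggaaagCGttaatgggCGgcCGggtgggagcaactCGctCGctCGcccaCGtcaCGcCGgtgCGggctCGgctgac
Meis2: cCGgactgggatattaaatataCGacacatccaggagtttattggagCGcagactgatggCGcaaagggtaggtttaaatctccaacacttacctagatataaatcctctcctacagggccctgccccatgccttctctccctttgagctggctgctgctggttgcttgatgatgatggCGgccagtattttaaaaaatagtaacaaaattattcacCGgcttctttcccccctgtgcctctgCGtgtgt

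The promoter of Irx4 held 22 CpG dinucleotides at 68.8% GC, that of Irx3 held 13 at 56.0% and that of Meis2 held 7 at 47.6%. The median over 32851 promoter windows of the same length was 6 CpG dinucleotides and 52.4% GC. The Irx4 and Irx3 windows lay above both medians, and Meis2 lay near the median in CpG count and below it in GC. RefSeq promoters were matched for 7 of the 9 genes, all but Irx5 and Dlx3. Irx2 (19 CpG, 68.4% GC), Msx1 (20, 68.0%), Msx2 (16, 61.6%) and Meis1 (13, 59.6%) also lay above both medians. A CpG-rich window was thus not particular to Irx3 and Irx4. None of these 7 windows held, on either strand, the Iroquois motif ACANNTGT, the Meis and Tgif motif TGACAG or the Msx and Dlx motif TAATTG, which were searched separately and occur in 6.31%, 15.9% and 7.17% of all windows. The absence says only that these letters are not in these windows.

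Markers of the sort are described before the genes. All 7 bulge markers had both bulge arrays above both total arrays, beside 18.0% of all genes. They were chosen with earlier results of these data known, so this count is a description and no independent check. Cd34, the surface marker of the gate, had signals of 844 and 1144 in total epidermis against 15697 and 14034 in bulge cells. Itga6, which encodes the α6 integrin of the gate, was not higher (log2 difference -0.91, 95% interval -2.22 to 0.41), and its other probe set gave -1.29. The difference for Krt14, the gene whose promoter the transgene uses, was -0.30, with -0.65 and -2.42 on its other probe sets. All 7 basal keratinocyte markers lay above background. The SD of replicate differences was 0.554 log2 units for total epidermis and 0.918 for bulge cells over the 7322 genes above background, so bulge values carry the larger spread. The background level is the 95th percentile of the signals of 64 olfactory, vomeronasal and bitter taste receptor genes, a signal of 144.8 (log2 7.18). Signals below it have no order here, and a gene below it in a whole group is given a bound on its fold change, which leaves out sampling error. Every difference is bulge minus total on the log2 scale.

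Of the 9 genes, 4 lay above background on all 4 arrays (Irx2, Irx3, Irx5 and Meis1). Irx4 was above it on both bulge arrays only and Meis2 on both total arrays only. The group means of the other 3 (Msx1, Msx2 and Dlx3) were below it in both groups. Irx3 and Irx4 were higher in the bulge group and Meis2 was lower, while Irx2, Irx5 and Meis1 differed by less than 0.5 on the log2 scale, with intervals that reached zero. Both bulge arrays were above both total arrays for 3 of the 9 genes, against 18.0% of all genes, and below them for 1, against 20.5% of all genes. The median difference over the 9 genes was 0.27, a value that depends on signals below background: with those set to the background level it was 0.0016. Over all genes the median was -0.02.

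**Figure D1:**
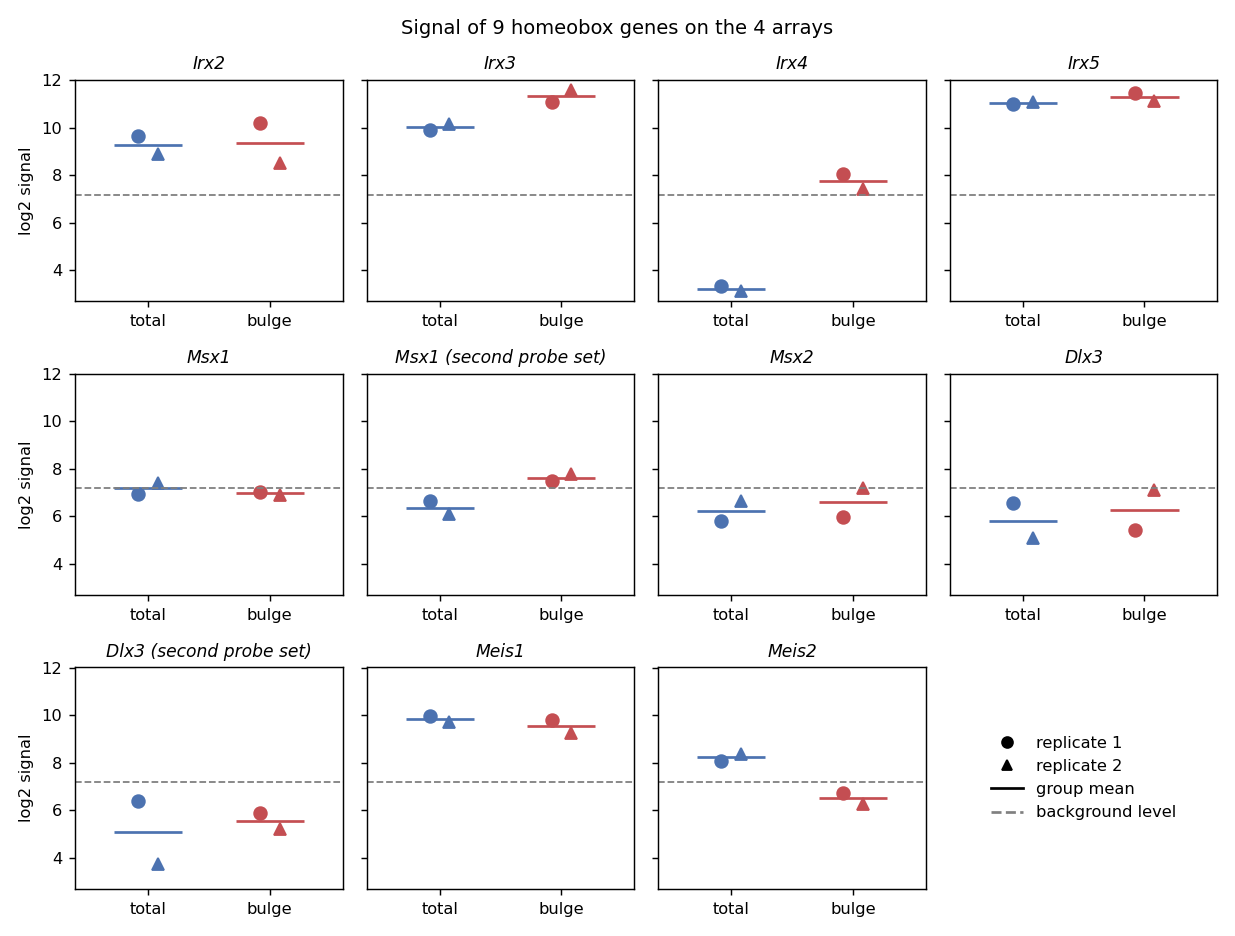
Log2 signal (vertical axis) of the 11 probe sets of the 9 genes on the total arrays (blue) and bulge arrays (red), with circles for replicate 1, triangles for replicate 2, bars for group means and a dashed line at the background level of 7.18. Irx4 is above the line on the bulge arrays only, Meis2 on the total arrays only, and the bulge arrays of Irx2 lie on either side of its total arrays.

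Irx3, a patterning factor of the neural tube and limb, had signals of 962 and 1130 in total epidermis against 2160 and 3091 in bulge cells (probe set 1418517_at). Both bulge signals were above both total signals. Its log2 signal was 10.03 ± 0.16 (SD, n = 2) for total epidermis and 11.34 ± 0.37 (SD, n = 2) for bulge cells, a difference of 1.31 or 2.48-fold with a 95% interval of 0.28 to 2.34. Irx3 was the gene of the 9 with the largest difference among those above background on all 4 arrays. With 1 array left out at a time its difference stayed between 1.05 and 1.57.

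Irx4, known as a determinant of ventricular identity in the heart, had signals of 9.96 and 8.59 in total epidermis against 264 and 173 in bulge cells (probe set 1419539_at). It was thus not above background in the total sort and was detected on both bulge arrays. The fitted log2 difference was 4.53 (95% interval 3.47 to 5.58), but it rests on total signals far below background, where values have no order. Against the background level Irx4 was higher in bulge cells by at least 1.47-fold. That bound was 1.78-fold with background at the 90th percentile of the receptor genes and 1.08-fold at the 99th.

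Irx5, which shapes the gradient of cardiac repolarisation, had signals of 2045 and 2141 in total epidermis against 2832 and 2246 in bulge cells (probe set 1421072_at). The groups did not overlap, by the narrow gap between 2141 and 2246. The log2 difference was 0.27 with a 95% interval of -0.69 to 1.23. Irx2, which lies beside Irx4, had signals of 805 and 471 in total epidermis against 1171 and 366 in bulge cells (probe set 1426298_at). The bulge arrays were the highest and the lowest of the 4, so the groups overlapped. Its log2 signal was 9.27 ± 0.55 (SD, n = 2) for total epidermis and 9.35 ± 1.19 (SD, n = 2) for bulge cells. The difference of 0.09 turned to -0.75 without bulge replicate 1 and to -0.30 without total replicate 2.

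Neighbours within an Irx cluster are given side by side, and the differences between them were not tested. Irx1 and Irx6, the remaining cluster genes, were singled out here after their values had been seen. On chromosome 13, Irx1 had signals of 443 and 399 in total epidermis against 522 and 310 in bulge cells, a log2 difference of -0.06 beside 0.09 for Irx2 and at least 1.47-fold for Irx4. On chromosome 8, Irx6 was below background on all 4 arrays, beside differences of 1.31 for Irx3 and 0.27 for Irx5. The intervals of Irx3 (0.28 to 2.34) and Irx5 (-0.69 to 1.23) overlapped. Those of Irx1 (-1.17 to 1.04) and Irx2 (-1.63 to 1.81) are not set against Irx4, whose bound is a minimum fixed by the background level.

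Meis2, a TALE factor of limb and neural crest development, had signals of 271 and 330 in total epidermis against 107 and 76.6 in bulge cells (probe set 1417129_a_at). Both bulge signals were below both total signals and below background. The fitted log2 difference was -1.72 (95% interval -2.75 to -0.70), and against the background level Meis2 was at least 2.06-fold lower in the bulge group. With background at the 99th percentile of the receptor genes the bound was 1.51-fold. Meis1, best known as a Hox partner in blood stem cells, had signals of 1015 and 849 in total epidermis against 881 and 617 in bulge cells (probe set 1450992_a_at). The groups overlapped, and the log2 difference was -0.33 with a 95% interval of -1.36 to 0.70. The Meis genes thus both had lower means in the bulge group, with separate groups for Meis2 alone.

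Msx1, a repressor needed for tooth and palate formation, is read by a pair of probe sets that differ in whether they lie above background. The one taken by the rule (1417127_at, mean log2 signal 7.07) had signals of 123 and 170 in total epidermis against 130 and 120 in bulge cells. Its group means lay below background in both groups and its groups overlapped. The other (1448601_s_at, mean log2 signal 6.99) had signals of 99.9 and 67.9 in total epidermis against 177 and 218 in bulge cells. On that probe set both bulge signals were above background and above both total signals, and Msx1 was higher in bulge cells by at least 1.35-fold, with no bound left when background is set at the 99th percentile. The probe set taken by the rule thus gives no direction for Msx1, the other gives a log2 difference of 1.25, and the choice between them rested on a gap of mean signal smaller than the spread between replicates.

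Msx2, which acts in hair shaft differentiation, had signals of 56.4 and 101 in total epidermis against 63.5 and 145.2 in bulge cells (probe set 1449559_at). Of these, the bulge replicate 2 signal alone reached the background level, by a margin of under 1 unit of signal. Dlx3, a factor of hair and epidermal differentiation, had signals of 94.9 and 33.6 in total epidermis against 43.5 and 139.9 in bulge cells (probe set 1450475_at), and was below background on all 4. Its other probe set (1422037_at) had 83.9 and 13.4 against 58.0 and 36.8, also below background throughout. No fold is given for Msx2 or Dlx3, which were not measured above background in either group by their means.

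**Figure D2:**
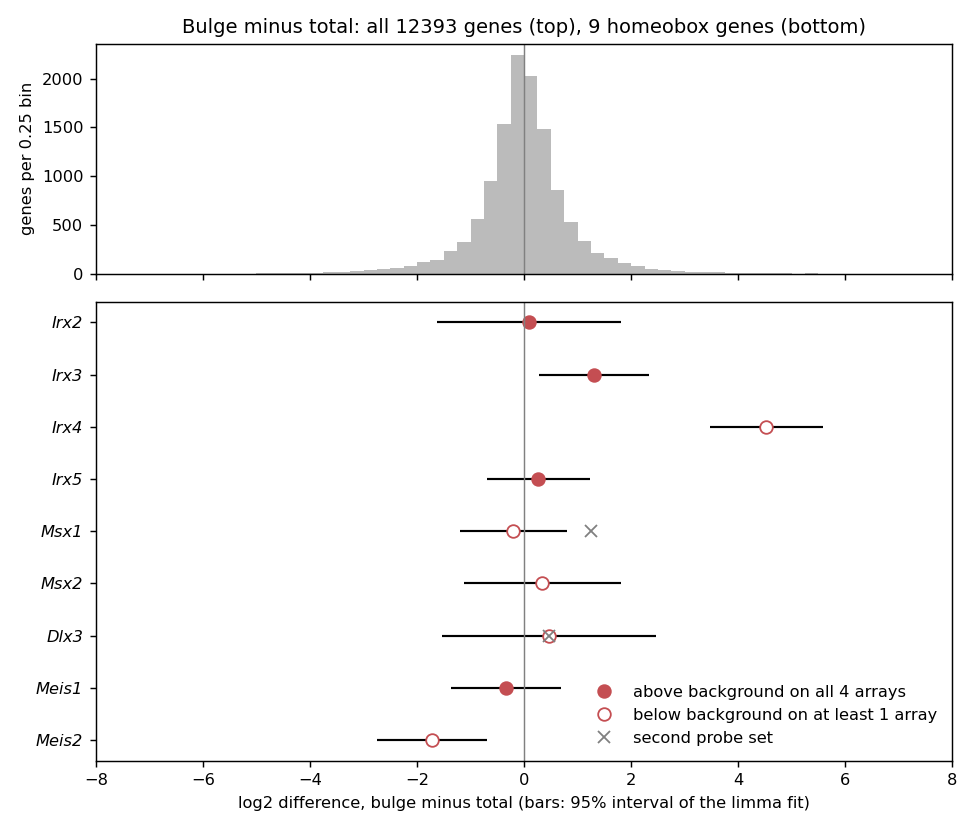
Top, number of genes per 0.25 of log2 difference (bulge minus total) over all 12393 genes. Bottom, the same difference for the 9 genes with its 95% interval from the limma fit, filled where a gene was above background on all 4 arrays and open otherwise, with crosses for the second probe sets of Msx1 and Dlx3. The intervals of Irx3 and Irx4 lie above zero and that of Meis2 below it.

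In the limma fit with Benjamini-Hochberg adjustment over all genes, none of the 9 passed an adjusted p of 0.05, as for all genes (0% called). At an unadjusted p under 0.05 the fit had 3 of the 9 (Irx3, Irx4 and Meis2), beside 10.5% of all genes. The limma fit with an intensity trend, which lets the prior variance follow the signal level, called 1 of the 9 higher, Irx4, against 0.557% of all genes, and 0 lower, against 0.524% (1.08% in either direction). That call was lost without total replicate 1 (trended limma fit, adjusted p of 0.107) and without total replicate 2 (adjusted p of 0.0963), settings in which no gene was called. With dim genes left out, the limma fit again called Irx4 of the 6 genes that remained, against 3.13% of genes in either direction (1.46% higher, 1.67% lower). Because the genes were chosen with this contrast known, nothing is read from these counts.

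**Figure D3:**
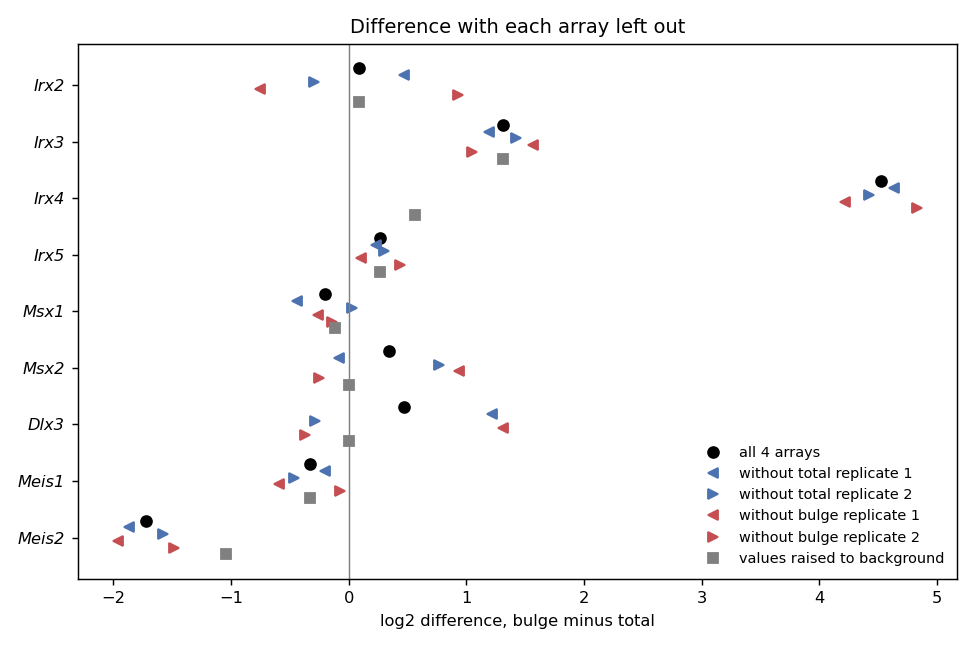
Log2 difference (bulge minus total, horizontal axis) of each of the 9 genes with all 4 arrays, with each array left out in turn, and with signals below background set to that level. Irx3, Irx4, Irx5, Meis1 and Meis2 keep their direction with each array left out, whereas Irx2, Msx1, Msx2 and Dlx3 cross zero.

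Related genes were described from 5 lists with 67 measured genes. Of these, 28 had a group mean above background, beside 59.1% of all genes. The median log2 difference was 0.04 for other TALE-class genes, 0.35 for other NK-like genes and -0.30 for hair shaft and sheath genes. It was 0.05 for genes above the basal layer, 0.12 for BMP pathway genes and -0.02 over all genes. With signals below background set to that level, each median was 0. Genes below background on all 4 arrays are then 0 by construction, so these zeros cannot show that a list did not shift. Among 10 other TALE-class genes (Irx, Meis, Pbx, Pknox and Tgif), 4 had a group mean above background and 0 passed either limma fit. The main limma fit had 1 of the 10 at an unadjusted p under 0.05, beside 10.5% of all genes. Pbx3, a homeodomain partner of Meis and Hox proteins, had signals of 279 and 235 in total epidermis against 1235 and 543 in bulge cells, a log2 difference of 1.68 (95% interval 0.35 to 3.01). Both bulge signals of Pbx3 were above both total signals, although it did not pass the test. Pbx2, another such partner, had a difference of 0.19, and its other probe sets gave -0.18 and 0.02.

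Among 9 other Msx, Dlx and NK-like genes, 0 had a group mean above background and 0 passed either limma fit. In the main limma fit 1 of the 9 had an unadjusted p under 0.05, beside 10.5% of all genes. That gene, En1, was below background on all 4 arrays. Its difference therefore has no reading. Dlx4, the neighbour of Dlx3, was below background on all 4 arrays, and Dlx5 was above it on 1 array of each group. By group means, low signal was thus shared by Msx2, Dlx3 and these 9 relatives. Over all genes, 59.1% had a group mean above background. Msx1 had the split reading given above.

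Hair shaft and inner root sheath genes, a programme in which Msx2 and Dlx3 are known to act, were mostly dim: 3 of 16 had a group mean above background. Hoxc13, a homeobox regulator of hair keratin genes, rose at least 3.99-fold (trended limma fit, adjusted p of 0.0442), from signals of 91.9 and 96.4 in total epidermis to 504 and 663 in bulge cells. It was the called gene of that list, against 0.557% of all genes called higher, with 15 not passing. The other 2 genes with a group mean above background were lower without overlap, beside 22.1% of all genes with such a mean. Gata3 had signals of 1695 and 1212 in total epidermis against 361 and 345 in bulge cells. Ovol1 had 177 and 246 against 99.6 and 141, the latter below background. At an unadjusted p under 0.05 the main limma fit had 3 of the 16 (1 higher, 2 lower), beside 10.5% of all genes. Of 12 genes of the differentiating layers above the basal layer, 1 was called lower, the keratin gene Krt1, against 0.524% of all genes. Krt1 fell 9.94-fold (trended limma fit, adjusted p of 0.0297), and 11 did not pass. The main limma fit had 2 of these 12 at an unadjusted p under 0.05 (1 higher, 1 lower), beside 10.5% of all genes. The lower was Krt1. The higher was Calml3, with signals of 1947 and 3494 in total epidermis against 8785 and 8073 in bulge cells.

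BMP pathway genes were described because Msx genes respond to BMP signals. In the trended limma fit 2 of the 20 measured rose, against 0.557% of all genes, and 0 fell, against 0.524%. The other 18 did not pass. At an unadjusted p under 0.05 the main limma fit had 8 of the 20, beside 10.5% of all genes. The 7 higher were Grem1, Id1, Id2, Id3, Id4, Smad6 and Smad7. Of these, Smad6 was above background on bulge replicate 2 alone, and its bound was 1.08-fold. The 1 lower was Bmp4, by at least 5.58-fold. Its signals were 620 and 1055 in total epidermis against 109 and 18.6 in bulge cells. Grem1, a secreted BMP antagonist, rose from signals of 447 and 528 in total epidermis to 7638 and 5628 in bulge cells. Id2, a BMP target, rose 7.48-fold (trended limma fit, adjusted p of 0.0297 for Grem1 and Id2 alike), with smaller differences of 1.95 and 1.26 on its other probe sets. Msx2 was at or below background on the same arrays, and Msx1 had the split reading given above. All of these trended calls in the 5 lists, those of Hoxc13, Krt1, Grem1 and Id2, were lost without either total array.

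**Figure D4:**
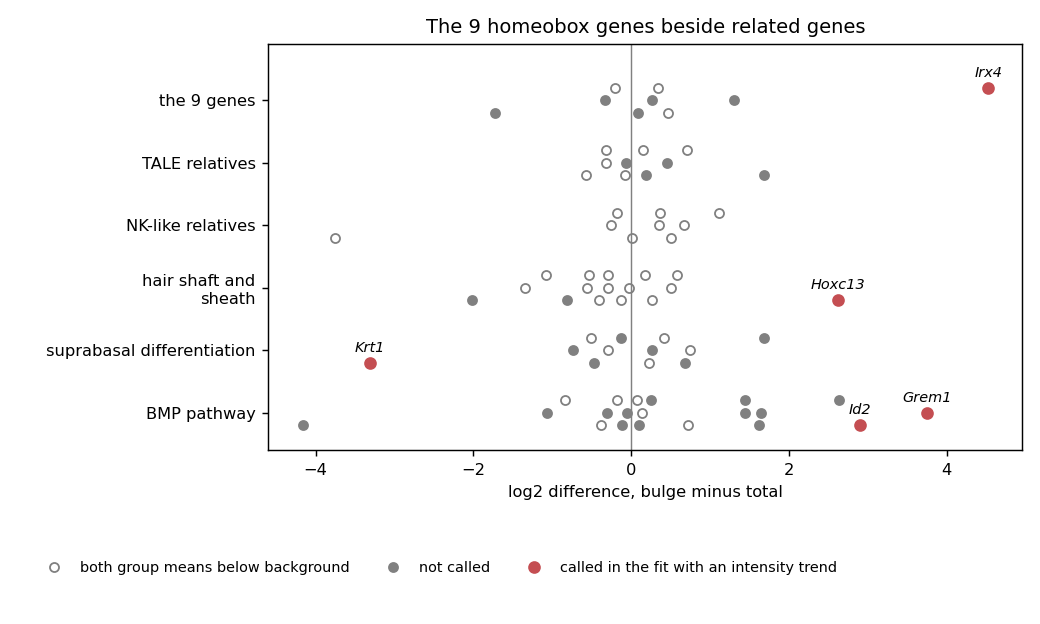
Log2 difference (bulge minus total, horizontal axis) of the 9 genes and of the measured genes of 5 related lists, 1 point per gene with heights offset for legibility. Red points, each named, passed the limma fit with an intensity trend, filled grey points did not pass, and open points had both group means below background. The red points beside Irx4 are Hoxc13, Krt1, Id2 and Grem1.

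Markers of other cell types moved with the same groups. In these sorted bulk samples, fewer cells of a type and less RNA per cell cannot be told apart. Of 11 leukocyte markers measured, 9 had a group mean above background, and all 9 were lower on each bulge array than on either total array, beside 22.1% of the 7322 genes with a group mean above background. Leukocyte markers had summed signals of 10019 to 13735 in total epidermis against 1170 to 1686 in bulge cells, the direction of Meis2. Csf1r, a myeloid receptor gene, fell 12.5-fold (trended limma fit, adjusted p of 0.0337), with a difference of -3.95 on its brighter other probe set and -0.51 on its dimmer one, whose mean is below background, and its call too was lost without either total array. Cd3d, a T cell receptor subunit gene, was above background on 1 total array alone, with signals of 57.6 and 284 in total epidermis against 5.41 and 15.1 in bulge cells, and no fold is given. Of 6 melanocyte markers, 4 had a group mean above background, and these 4 were lower without overlap, with sums over the list of 1732 to 1908 in total epidermis against 868 to 952 in bulge cells, and with differences of -1.45 for Tyrp1 and -1.22 for Dct. Upper follicle markers were lower without overlap for 5 of 7, beside the same 22.1%. Krt6a of that list was higher without overlap, with signals of 6529 and 5016 in total epidermis against 21288 and 14385 in bulge cells. The sums over the list, 35678 to 36528 in total epidermis against 21474 to 27592 in bulge cells, thus mix both directions. Both sorts were gated on GFP driven by the keratin 14 promoter, a gate meant to leave out cells in which that promoter is not active. The part of these markers in the Meis2 difference was not tested.

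Of 15 mesenchyme markers, 2 had a group mean above background, and 1 of these was higher without overlap, beside 20.6% of the 7322 genes with a group mean above background. Their summed signal was higher in bulge cells, from 961 to 1225 in total epidermis to between 2140 and 4746 in bulge cells. That sum was carried by Col1a2, with signals of 343 and 286 in total epidermis against 3852 and 1541 in bulge cells. Of 8 defining mesenchyme markers, 6 were below background on all 4 arrays, among them Pdgfra, Lum and Dcn, and Col1a1 was above it on 1 bulge array. The part of the mesenchyme markers in the Irx3 and Irx4 differences was not tested. Endothelial markers had sums of 335 to 497 in total epidermis against 397 to 445 in bulge cells, with 4 of 6 below background on all arrays, and sebaceous markers had sums of 12129 to 12521 and 9586 to 15067.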

How the data were processed

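RNA of 4 sorted cell samples, 2 per group, was measured on Affymetrix mouse arrays with 22690 probe sets. The deposited values are probe set intensity on a linear scale, and on every array their mean is 500.0 after trimming 2% at each end. GCOS, R 2.15.1, affy 1.36 and RMA are named in the submitters' processing notes without a role, and which of them made the values is not given in the sources used here. Array medians ran from 123.6 to 145.0. Precision is limited by the number of arrays.

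Log2 of the intensity was taken. Probe sets with 1 symbol (20380) were named from the platform annotation, with symbols updated through Entrez IDs for 20351. The probe set with the highest mean log2 signal stood for each gene. The main test was limma 3.58.1 (R 4.3.3), two-sided, on group alone, adjusted over 12393 genes at 0.05. It was also run on simulated data with noise drawn separately for each array. Replicate differences in the real data correlated at 0.575 between groups over genes above background, so that run does not measure its accuracy here. The members and lists were chosen with earlier results of these data known. From the lists, the genes called with the intensity trend were named, or the 2 brightest where none was called, and for markers of other cells up to 2 above background per direction, not all of which are printed. Alternatives were median centring, quantile normalization, trended or robust variance, a filter on dim genes, log2 of signal plus 32, the mean over probe sets, a replicate block and each array left out. Trend combined with the block or with left-out arrays, values raised to background, and the bounds at other background levels were chosen after seeing the data.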

Additional observations from a re-analysis of the deposited data

How the results depend on the processing

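The limma fit called 0 genes, 0 of the 9 and 0 of the 67 related genes, and also under median centring, quantile normalization, robust variance, the mean over probe sets and each array left out. The replicate block (the arrays share only a number; replicate differences correlated at 0.575 between groups over genes above background) called 0 as well. The intensity trend called 134 genes, 1 of the 9 (Irx4) and 4 related genes, the filter on dim genes 229, 1 (Irx4) and 5, and log2 of signal plus 32 called 37, 0 and 3. The trend with the replicate block called 917, 3 (Irx3, Irx4 and Meis2) and 13. With the trend and each array left out, calls were 388 and 350 genes, 1 and 1 of the 9, and 8 and 10 related genes without bulge replicates 1 and 2, and 0 without either total array. The causes of these changes were not tested. The filter left fewer genes (7322) in the fit and in the adjustment, and the parts of these were not separated. The sign of the fitted difference turned for Irx2 (-0.75 to 0.93 over left-out arrays, -0.30 without total replicate 2), Msx2 (-0.25 to 0.94, -0.080 without total replicate 1), Dlx3 (-0.38 to 1.31, -0.28 without total replicate 2) and Msx1 (-0.44 to 0.029, the latter without total replicate 2, and 0.52 with the mean over probe sets). On the probe sets taken by the rule, Msx1, Msx2 and Dlx3 have group means below background, where a sign has no reading. The mean over probe sets for Msx1 takes in its other probe set, which was above background on both bulge arrays. The same values hold with the trend. The Irx4 difference was 2.58 with log2 of signal plus 32 and 0.56 with values raised to background, and that of Meis2 was -1.43 and -1.05. The count of genes with a group mean above background was 6 of 9, and 7 with background at the 90th percentile.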
